A study of Mus musculus with 15 samples.

Results

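Resident macrophages of the heart were followed through 10 genes in left ventricles of C57BL/6 mice. The genes were Lyve1, Folr2, Timd4, Cd163, Mrc1, Cbr2, Gas6 and Mertk, which are used as markers of tissue-resident macrophages or belong to their uptake machinery, and the pan-macrophage genes Adgre1 and Csf1r. They were taken from the count table by symbol, and all 10 were found among its 47069 genes and passed the filter on low counts in every comparison. The study sequenced stranded mRNA libraries from 15 ventricles in 3 groups of 5. In the rHCI group mice had a myocardial infarct, received rHCI (a hydrogel of recombinant human collagen type I) in the heart muscle 7 days later, and gave the ventricle 2 days after that. The PBS group had the same infarct and schedule with an injection of phosphate-buffered saline. The Sham group had a sham operation, no treatment, and an age-matched collection at 10 weeks. Against Sham, the effects of infarct and of injection are therefore confounded and cannot be told apart. The labels name the left ventricle as a whole and give no infarct or remote zone. RNA came from ground tissue, so fewer cells of a type and less RNA per cell cannot be told apart for any gene below.

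Most macrophages of the healthy adult heart are long-lived cells that renew themselves locally with little input from blood. They carry TIMD4, LYVE1 and FOLR2 in varying combinations, clear dying cells and debris, and depend on the CSF1 receptor. After an infarct, monocytes carrying CCR2 enter the wound and become macrophages that express Adgre1 and Csf1r but, at first, little of the resident markers.

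Total counts were 48699092 to 62577074 in rHCI libraries, 32978702 to 103356830 in PBS libraries and 53211878 to 100899246 in Sham libraries. The lowest count of any of the 10 genes in a library was 74, for Timd4. Heart muscle genes of the cardiomyocyte list summed to 35900 to 54000 CPM (normalised read counts, scaled by library size and TMM factors) in rHCI hearts, 33700 to 48300 in PBS hearts and 65700 to 72200 in Sham hearts. A run number in the labels was shared by 12 libraries, while PBS 6, rHCI 1 and Sham 19 carried others. PBS 6 stood apart in the lung epithelium list, whose 8 genes summed to 73.9 CPM there, against 1.88 to 2.74 in rHCI, 1.92 to 3.07 in the other PBS and 0.236 to 0.675 in Sham libraries. Sftpc, a surfactant gene, was at 44.6 CPM in PBS 6. In the other libraries nearly all of the sum was 1 gene of the list, Napsa, which averaged 2.22 CPM in rHCI and 0.407 in Sham hearts.

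The 10 genes did not move together. In PBS against Sham hearts 7 were higher, 1 was lower and 2 did not pass edgeR's quasi-likelihood test at an adjusted p under 0.05, while 36.5% of all 16207 genes tested were higher and 34.9% lower. In rHCI against Sham hearts 7 were higher, 1 was lower and 2 did not pass, against 34.1% and 29.7% of 16076 genes. The median log2 fold change of the 10 genes was 0.41 in PBS and 0.36 in rHCI against Sham, beside −0.01 and 0.00 for all genes tested. With library totals in place of TMM scaling, which moved the median of all genes to 0.27 in PBS and 0.22 in rHCI, 77.4% of the calls in PBS and 79.0% in rHCI against Sham were higher, beside 51.2% and 53.4% with TMM. The pan-macrophage genes Adgre1 and Csf1r rose most, Cd163 fell, and Timd4 did not pass in either comparison. Both comparisons use the same 5 Sham libraries. Without PBS 6 the counts were again 7 higher and 1 lower.

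**Figure D1:**
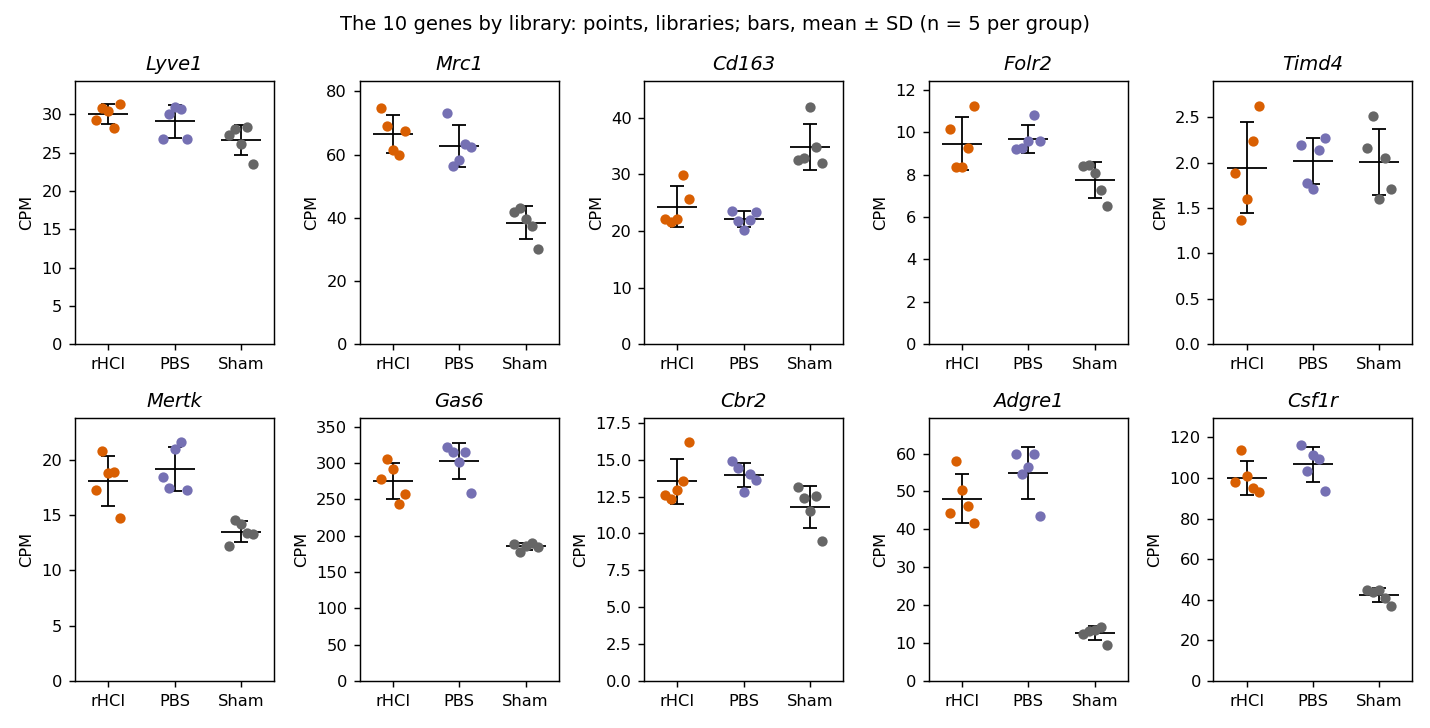
CPM of each of the 10 genes in every library, with rHCI, PBS and Sham from left to right. Points are libraries and bars are mean ± SD (n = 5 per group). Cd163 was below every Sham library in all 10 infarcted hearts, while Adgre1 and Csf1r were above every Sham library.

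Adgre1 encodes F4/80, the surface receptor used to stain mouse macrophages (ENSMUSG00000004730; GRCm38 chromosome 17, 57358691 to 57483527). It had 44.4, 58.0, 50.4, 46.2 and 41.6 CPM in rHCI 1, 3, 7, 11 and 13, then 60.0, 54.7, 56.5, 59.9 and 43.5 CPM in PBS 2, 6, 9, 12 and 14, against 12.4, 13.3, 13.4, 14.3 and 9.51 CPM in Sham 16 to 20. Every infarcted heart was above every Sham heart, and Sham 20 was the lowest of all. The log2 fold change was 2.13 ± 0.11 (SE) in PBS and 1.95 ± 0.12 in rHCI against Sham, a rise of 4.37-fold and 3.85-fold (edgeR adjusted p = 4.08e-09 and 6.64e-08).

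Csf1r encodes the receptor for the growth factors CSF1 and IL-34, on which macrophage survival depends (ENSMUSG00000024621; chromosome 18, 61100598 to 61132149). It had 97.9, 114, 101, 94.98 and 92.9 CPM in the rHCI libraries and 116, 103, 111, 109 and 93.7 CPM in the PBS libraries, against 44.6, 44.0, 44.8, 40.8 and 36.9 CPM in the Sham libraries. The infarcted groups overlapped each other and stood wholly above Sham. Its log2 fold change was 1.34 ± 0.07 in PBS and 1.25 ± 0.07 in rHCI against Sham (edgeR adjusted p = 3.43e-09 and 4.93e-08). Exons of Csf1r share 873 bases with Hmgxb3 on the opposite strand, and the strand setting of the authors' counting is not given. Hmgxb3 averaged 27.1 CPM in rHCI, 26.8 in PBS and 27.4 in Sham hearts.

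Cd163, the scavenger receptor for haptoglobin bound to haemoglobin, was the gene that fell (ENSMUSG00000008845; chromosome 6, 124304656 to 124330527). It had 22.1, 21.6, 22.2, 29.9 and 25.6 CPM in the rHCI libraries and 23.6, 21.8, 20.1, 21.9 and 23.3 CPM in the PBS libraries, against 32.5, 32.9, 41.9, 34.8 and 32.1 CPM in the Sham libraries. No infarcted heart reached the lowest Sham heart, and rHCI 11 came nearest. The log2 fold change was −0.66 ± 0.07 in PBS and −0.51 ± 0.10 in rHCI against Sham (edgeR adjusted p = 3.77e-06 and 0.000825). Scaled by library totals in place of TMM, it was −0.38 and −0.29.

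Mrc1, the mannose receptor CD206 (ENSMUSG00000026712; chromosome 2, 14229392 to 14332057), rose. It had 74.9, 68.9, 61.5, 59.8 and 67.6 CPM in the rHCI libraries and 73.3, 56.4, 58.2, 63.5 and 62.4 CPM in the PBS libraries, against 41.9, 43.2, 39.6, 37.4 and 30.3 CPM in the Sham libraries. The infarcted and Sham hearts did not overlap. The log2 fold change was 0.70 ± 0.10 in PBS and 0.80 ± 0.09 in rHCI against Sham (edgeR adjusted p = 2.01e-05 and 1.69e-05). Cd163 and Mrc1, often used together as markers of one macrophage state, thus went in opposite directions in the same hearts.

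Lyve1, a hyaluronan receptor of resident macrophages and lymphatic vessels (ENSMUSG00000030787; chromosome 7, 110850607 to 110863239), stayed close to its Sham level. It had 29.2, 30.9, 30.4, 28.2 and 31.4 CPM in the rHCI libraries and 26.8, 30.1, 31.0, 30.7 and 26.8 CPM in the PBS libraries, against 27.3, 28.1, 26.2, 28.3 and 23.5 CPM in the Sham libraries. The groups overlapped, with rHCI 11, PBS 2 and PBS 14 inside the Sham range. The log2 fold change of 0.18 ± 0.06 in rHCI against Sham passed (edgeR adjusted p = 0.0184) and that of 0.12 ± 0.06 in PBS against Sham did not (edgeR adjusted p = 0.0960). The PBS comparison passed without PBS 14 (adjusted p = 0.0358), by limma-voom (adjusted p = 0.0467) and with library totals (adjusted p = 0.000263), and the rHCI call was lost when a change above 1.2-fold was required (adjusted p = 0.957).

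Folr2, folate receptor beta (ENSMUSG00000032725; chromosome 7, 101839988 to 101857194), had 10.1, 8.34, 8.36, 9.24 and 11.3 CPM in the rHCI libraries and 9.21, 9.26, 9.60, 10.8 and 9.59 CPM in the PBS libraries, against 8.42, 8.45, 8.08, 7.28 and 6.51 CPM in the Sham libraries. The PBS libraries lay above all Sham libraries, whereas rHCI 3 and rHCI 7 lay inside the Sham range. The log2 fold change was 0.32 ± 0.08 in PBS and 0.30 ± 0.10 in rHCI against Sham (edgeR adjusted p = 0.00320 and 0.0239). The rHCI call was lost without rHCI 1 (adjusted p = 0.0558), rHCI 13 (0.0602), Sham 19 (0.0553) or Sham 20 (0.0616) and in the shared run alone (0.108), and both calls were lost when a change above 1.2-fold was required (0.164 in PBS, 0.311 in rHCI). Its exons share 975 bases with the antisense gene Gm10602, which averaged 0.694 CPM in rHCI, 0.756 in PBS and 0.813 in Sham hearts.

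Timd4, a receptor for phosphatidylserine on dying cells and the marker of the longest-lived resident macrophages, was the least abundant of the 10 genes (ENSMUSG00000055546; chromosome 11, 46810800 to 46844332). It had 1.88, 1.37, 1.60, 2.24 and 2.62 CPM in the rHCI libraries and 2.19, 1.77, 1.71, 2.13 and 2.27 CPM in the PBS libraries, against 2.17, 2.52, 1.60, 2.05 and 1.70 CPM in the Sham libraries. The 3 groups overlapped throughout, and rHCI 3 was the lowest and rHCI 13 the highest of all libraries. Its log2 fold change was 0.00 in PBS against Sham (95% interval −0.31 to 0.32) and −0.04 in rHCI against Sham (−0.44 to 0.37), with edgeR adjusted p = 0.990 and 0.881. Its sign turned under other scalings, so no direction is given.

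Sequence upstream of the start is shown for 3 receptors that differed in direction, Cd163 (lower), Mrc1 (higher) and Timd4 (not passed). These are the 250 bases before the RefSeq start on GRCm38.p6, plus strand, at chr6:124304401-124304650, chr2:14229164-14229413 and chr11:46810549-46810798. Capitals mark matches on either strand to GAGGAA, a core recognised by the macrophage factor PU.1, to TGCTGA, a half-site of MAF factors, or to TGANTCA, the AP-1 site.
Cd163: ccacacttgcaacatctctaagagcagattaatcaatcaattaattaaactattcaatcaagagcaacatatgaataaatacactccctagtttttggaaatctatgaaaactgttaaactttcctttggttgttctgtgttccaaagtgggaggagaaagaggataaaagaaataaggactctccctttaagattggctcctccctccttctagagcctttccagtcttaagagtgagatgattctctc
Mrc1: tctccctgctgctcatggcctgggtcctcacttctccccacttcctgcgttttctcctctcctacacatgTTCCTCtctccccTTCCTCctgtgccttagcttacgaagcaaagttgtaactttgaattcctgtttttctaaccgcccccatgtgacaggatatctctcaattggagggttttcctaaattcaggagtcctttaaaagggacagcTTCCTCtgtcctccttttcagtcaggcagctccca
Timd4: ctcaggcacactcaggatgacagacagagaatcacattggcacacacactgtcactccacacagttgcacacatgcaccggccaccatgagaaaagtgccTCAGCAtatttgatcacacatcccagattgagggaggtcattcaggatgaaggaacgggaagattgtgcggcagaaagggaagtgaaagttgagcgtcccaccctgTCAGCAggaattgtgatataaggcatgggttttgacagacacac

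The Mrc1 window held 3 matches to GAGGAA, the Timd4 window held 2 to TGCTGA, and the Cd163 window held no match to any of them. RefSeq windows were at hand for 7 of the 10 genes, 8 windows in all, of which 2 held GAGGAA, 3 held TGCTGA and 1 held TGANTCA. Of 32851 windows of the same length over all genes, 23.3% held GAGGAA, 16.1% TGCTGA and 6.75% TGANTCA. A match is a description of these letters and no measure of binding.

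Mertk and Gas6 form a receptor and ligand pair: MERTK is a receptor tyrosine kinase of phagocytes, and GAS6 bridges it to phosphatidylserine on dying cells. Mertk (ENSMUSG00000014361; chromosome 2, 128698956 to 128802894) had 17.3, 20.8, 18.8, 18.9 and 14.7 CPM in the rHCI libraries and 18.4, 17.5, 20.98, 21.6 and 17.3 CPM in the PBS libraries, against 12.2, 14.6, 14.2, 13.4 and 13.2 CPM in the Sham libraries. All infarcted hearts were above all Sham hearts, although rHCI 13 was only just above Sham 17. Its log2 fold change was 0.50 ± 0.07 in PBS and 0.43 ± 0.09 in rHCI against Sham (edgeR adjusted p = 4.35e-05 and 0.000923).

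Gas6 (ENSMUSG00000031451; chromosome 8, 13465374 to 13494490) had 277, 305, 291, 243 and 258 CPM in the rHCI libraries and 322, 315, 302, 315 and 259 CPM in the PBS libraries, against 189, 178, 185, 190 and 184 CPM in the Sham libraries. The infarcted and Sham hearts did not overlap, and PBS 14 was the lowest of the PBS hearts. Its log2 fold change was 0.70 ± 0.06 in PBS and 0.58 ± 0.06 in rHCI against Sham (edgeR adjusted p = 2.75e-07 and 8.91e-06). Fibroblasts, endothelium and smooth muscle also express Gas6. All 7 genes of the fibroblast list rose in both infarcted groups, and their summed level was 10200 to 16600 CPM in rHCI, 11200 to 16600 in PBS and 979 to 1240 in Sham hearts. Their part in the rise of Gas6 was not tested.

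Cbr2, a carbonyl reductase gene found in resident macrophages and lung epithelium (ENSMUSG00000025150; chromosome 11, 120729489 to 120732114), had 12.6, 12.3, 12.96, 13.5 and 16.2 CPM in the rHCI libraries and 14.9, 14.4, 12.8, 14 and 13.6 CPM in the PBS libraries, against 13.2, 12.4, 11.5, 12.5 and 9.51 CPM in the Sham libraries. The groups overlapped, and Sham 20 was the lowest of all. Its log2 fold change of 0.24 ± 0.08 in PBS against Sham passed (edgeR adjusted p = 0.0205) and that of 0.20 ± 0.10 in rHCI against Sham did not (edgeR adjusted p = 0.0904). The PBS call was lost when a change above 1.2-fold was required (adjusted p = 0.523), and rHCI against Sham passed with library totals (adjusted p = 0.00196). PBS 6, where lung genes were high, was at 14.4 CPM, below PBS 2 and above PBS 9, PBS 12 and PBS 14. Without PBS 6 the log2 fold change in PBS against Sham was 0.22 (edgeR adjusted p = 0.0457).

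**Figure D2:**
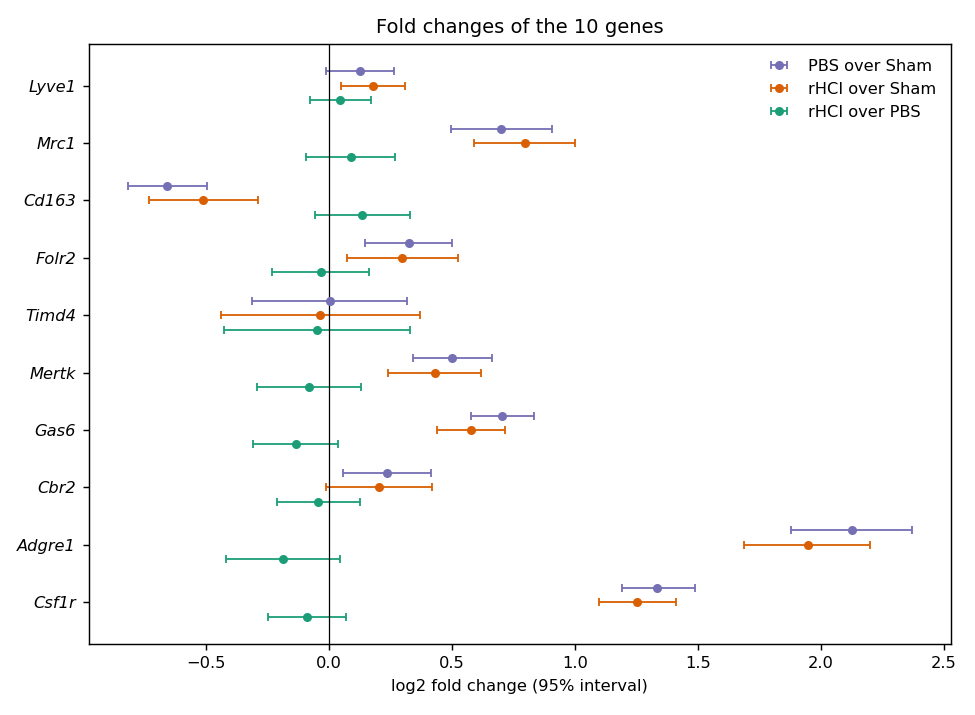
Log2 fold changes of the 10 genes for PBS over Sham, rHCI over Sham and rHCI over PBS, with 95% intervals from edgeR's quasi-likelihood fits (5 libraries per group). Intervals for Adgre1 and Csf1r against Sham lie to the right of those of the other 8 genes, Cd163 lies left of 0, and every rHCI over PBS interval spans 0.

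In PBS against Sham, 6 of the 10 genes were higher without overlap between the groups, where 31.6% of all genes tested were, and 1 was lower without overlap, where 27.4% were. In rHCI against Sham 5 were higher and 1 was lower without overlap, against 27.1% and 22.3% of all genes. The 6 genes higher without overlap in PBS were Folr2, Mrc1, Gas6, Mertk, Adgre1 and Csf1r, and Folr2 was the one that overlapped in rHCI.

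The hydrogel was set against saline in hearts that all carried an infarct. None of the 10 genes passed, at adjusted p of 0.871 to 0.952, in a comparison where edgeR called 0 of 16383 genes (0%) and 3.53% of genes had an unadjusted p under 0.05. The unadjusted p of the 10 genes was 0.100 to 0.783. DESeq2 called 6 genes in this comparison and limma-voom 3, with 0 of the 10 among them. The 95% intervals of the fold change of rHCI over PBS were 0.747 to 1.03 for Adgre1, 0.841 to 1.05 for Csf1r, 0.961 to 1.26 for Cd163, 0.937 to 1.2 for Mrc1 and 0.948 to 1.12 for Lyve1. They were 0.852 to 1.12 for Folr2, 0.744 to 1.26 for Timd4, 0.817 to 1.09 for Mertk, 0.806 to 1.03 for Gas6 and 0.863 to 1.09 for Cbr2. No gene of the 10 had groups without overlap here, where 0.501% of all genes did.

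Per kilobase of exon, levels can be set roughly side by side between genes. The length was the union of all annotated exons of a gene, and the transcripts expressed may be shorter. In Sham hearts the order was Gas6 (72.7 ± 1.91 CPM per kilobase, SD, n = 5), Lyve1 (9.14 ± 0.668), Cbr2 (8.91 ± 1.07), Csf1r (7.31 ± 0.588), Cd163 (6.38 ± 0.749), Mrc1 (6.04 ± 0.801), Folr2 (5.01 ± 0.543), Adgre1 (3.89 ± 0.569), Mertk (3.12 ± 0.210) and Timd4 (0.924 ± 0.170). Only Gas6 at the top and Timd4 at the bottom were separated from their neighbour without overlap of libraries in that group. In PBS hearts Csf1r (18.5 ± 1.49) and Adgre1 (17 ± 2.1) came next after Gas6 (119 ± 9.95), above Cbr2, Lyve1 and Mrc1 at 9.85 to 10.5 CPM per kilobase. Adgre1 thus stood above Lyve1, Cbr2, Cd163, Mrc1 and Folr2 in PBS hearts and below them in Sham hearts. In rHCI hearts Csf1r (17.3 ± 1.44) and Adgre1 (14.9 ± 1.97) held the same places behind Gas6 (108 ± 9.77). Cd163 was at 4.45 ± 0.650 in rHCI and 4.05 ± 0.252 in PBS hearts, and its libraries overlapped those of Mertk there.

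To set the resident genes against macrophage RNA as a whole, each was expressed relative to Adgre1 and Csf1r, as its log2 CPM minus the mean log2 CPM of those 2 genes. All 8 were lower relative to them in PBS and in rHCI than in Sham hearts, without overlap of libraries. The difference from Sham was largest for Cd163, at −2.38 in PBS and −2.11 in rHCI, a ratio 5.21-fold and 4.33-fold lower. It was −1.72 and −1.66 for Timd4, −1.61 and −1.42 for Lyve1, −1.49 and −1.40 for Cbr2, −1.41 and −1.31 for Folr2 and −1.23 and −1.18 for Mertk. Gas6 (−1.03 and −1.03) and Mrc1 (−1.02 and −0.80) differed least. Each of these 16 two-sided exact permutation tests gave p = 0.00794, the smallest that 5 libraries against 5 allow. Relative to the same 2 genes, however, 85.2% of all genes were lower without overlap in PBS and 84.9% in rHCI, with median differences of −1.74 and −1.60. A lower level relative to Adgre1 and Csf1r was thus shared with most genes. The difference of Cd163 lay below the all-gene median in both comparisons, and those of Lyve1, Cbr2, Folr2, Mertk, Gas6 and Mrc1 lay above it in both. Timd4 lay close to it, just above in PBS and just below in rHCI. Between rHCI and PBS hearts the 8 differences were 0.00 to 0.27, with exact permutation p of 0.0794 to 0.952 over 8 tests, and 0 of 8 genes were without overlap, against 0.104% lower and 0.220% higher of all genes. Without rHCI 3 the difference of Lyve1 was 0.24 (exact permutation p = 0.0159).

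**Figure D3:**
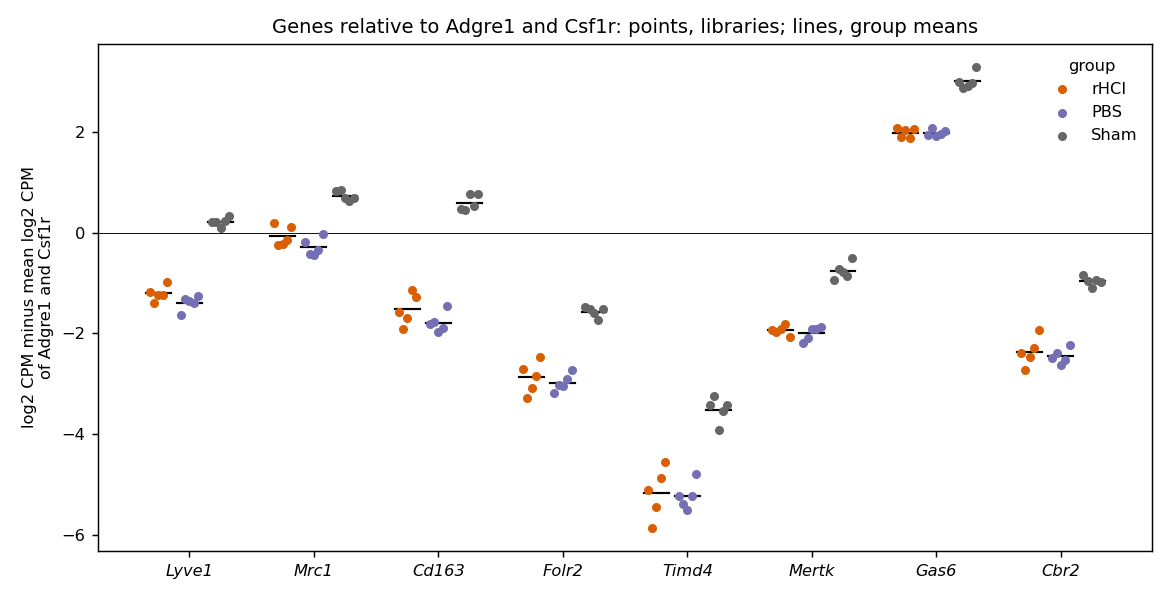
Log2 CPM of 8 genes minus the mean log2 CPM of Adgre1 and Csf1r, per library, with rHCI, PBS and Sham from left to right for each gene. Points are libraries and lines are group means (n = 5). For every gene the Sham libraries lie above both infarcted groups.

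Other macrophage genes place these changes. Counts in this and the following lists stand beside the shares of all genes tested. These were 36.5% higher and 34.9% lower in PBS, and 34.1% and 29.7% in rHCI, against Sham. All 18 pan-macrophage genes of a wider list rose in PBS and in rHCI against Sham, with median log2 fold changes of 2.27 and 2.12, beside 2.13 and 1.95 for Adgre1. All 7 genes of a neutrophil list rose in both as well. The part of other leukocytes in the pan-macrophage list was not tested. Ms4a7, a membrane protein of macrophages, averaged 21.5 ± 5.83 CPM in rHCI and 27.8 ± 5.67 in PBS against 1.74 ± 0.282 in Sham hearts (SD, n = 5). Mpeg1, which encodes a pore-forming protein of phagocytes, averaged 132 ± 26.7 CPM in rHCI and 172 ± 33.4 in PBS against 13.8 ± 2.28 in Sham hearts. Ctss, the lysosomal protease cathepsin S, had log2 fold changes of 3.24 ± 0.16 in PBS and 2.91 ± 0.13 in rHCI, and Cx3cr1, the fractalkine receptor, had 2.97 ± 0.25 and 2.80 ± 0.28. All 12 genes of the recruited monocyte list rose in both comparisons (median log2 fold change 2.89 in PBS and 2.58 in rHCI). The 7 genes of the fibroblast list rose in both too, and the part of other cells in the monocyte list was not tested. Plac8, high in blood monocytes, had a log2 fold change of 4.24 ± 0.22 in PBS and 3.98 ± 0.32 in rHCI, and Ccr2, the chemokine receptor of recruited monocytes, had 3.75 ± 0.16 and 3.61 ± 0.13. Chil3, a chitinase-like protein of monocytes, had 4.36 ± 0.54 and 5.67 ± 0.87, and F10, coagulation factor X, had 4.33 ± 0.20 and 4.24 ± 0.29. Chil3 was at 6.98 CPM in rHCI 11 and at 0.651 to 1.79 in the other rHCI libraries, and without rHCI 11 its log2 fold change in rHCI against Sham was 4.64 ± 0.45. Of 12 scar macrophage genes 11 rose and 1 fell in both, and Arg1, arginase 1, averaged 15.6 ± 7.29 CPM in rHCI and 9.74 ± 1.70 in PBS against 0.0570 ± 0.0386 in Sham hearts. Its log2 fold change was 7.29 ± 0.25 in PBS and 7.98 ± 0.50 in rHCI. The list also held Spp1, osteopontin (7.93 ± 0.32 in PBS and 7.88 ± 0.16 in rHCI), Mmp12, macrophage elastase (7.38 ± 0.29 and 7.21 ± 0.26), and Gpnmb, a glycoprotein of lipid-laden macrophages (6.10 ± 0.33 and 5.75 ± 0.32). The one that fell was Lpl, lipoprotein lipase, which heart muscle also expresses strongly. All 7 MHC class II genes rose in both, with medians of 1.38 in PBS and 1.31 in rHCI. Ciita, their transcriptional regulator, had 2.43 ± 0.17 and 2.32 ± 0.18, H2-DMb1, a chain that helps load peptides, had 1.56 ± 0.14 and 1.4 ± 0.14, and the class II chains H2-Ab1 and H2-Eb1 had 1.45 ± 0.12 and 1.38 ± 0.13 in PBS and 1.39 ± 0.14 and 1.31 ± 0.14 in rHCI.

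Genes of a second list of 20 used for resident macrophages mostly rose, with higher medians than the 10. Of its 18 genes tested, 14 rose and 1 fell in PBS against Sham and 14 rose and 0 fell in rHCI against Sham. The medians were 0.86 in PBS and 0.99 in rHCI, beside 0.41 and 0.36 for the 10 genes. Igf1, a growth factor of resident and reparative macrophages and of fibroblasts, averaged 64.4 ± 6.92 CPM in rHCI and 74.1 ± 6.32 in PBS against 15.1 ± 2.19 in Sham hearts. Gpr34, a lysophosphatidylserine receptor, had log2 fold changes of 1.95 ± 0.21 in PBS and 1.83 ± 0.22 in rHCI, and Vsig4, a complement receptor, had 1.84 ± 0.18 and 1.81 ± 0.20. Fcna, a ficolin that binds microbial sugars, had 1.36 ± 0.18 and 1.43 ± 0.26. At the other end Ccl24, a chemokine gene, averaged 0.977 ± 0.257 CPM in PBS against 1.39 ± 0.147 in Sham hearts (log2 fold change −0.49 ± 0.18, edgeR adjusted p = 0.0223), and 1.36 ± 0.239 CPM in rHCI hearts, which did not pass against Sham (adjusted p = 0.887) or PBS (adjusted p = 0.871). Selenop, named Sepp1 in the table, had 0.37 ± 0.05 in PBS and 0.37 ± 0.06 in rHCI. F13a1, the coagulation factor gene of resident macrophages, had 0.22 ± 0.08 and 0.32 ± 0.09, close to Folr2 and Cbr2. In PBS against Sham the call of Ccl24 was lost without PBS 6 (edgeR adjusted p = 0.0616), PBS 9 (0.0579) or Sham 19 (0.0509), and that of F13a1 without PBS 2 (0.0692), PBS 12 (0.0608) or Sham 20 (0.0630).

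**Figure D4:**
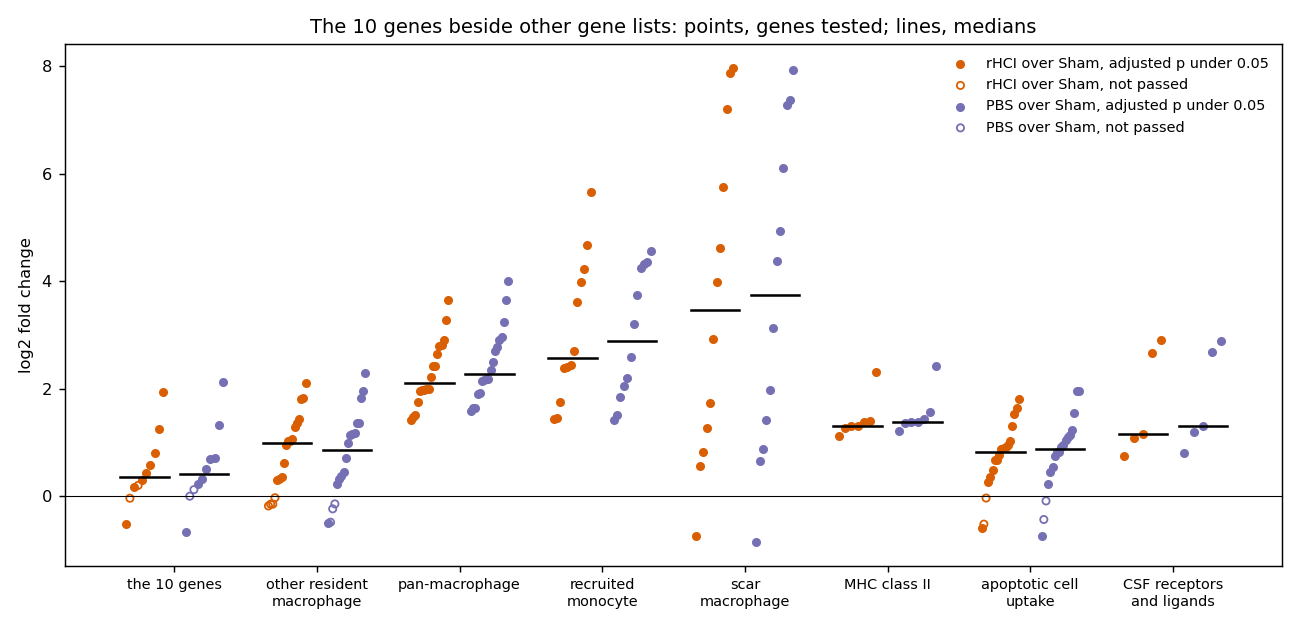
Log2 fold changes of single genes in 8 lists, rHCI over Sham left of PBS over Sham in each. Filled points passed at adjusted p under 0.05, open points did not, and lines are medians. The 10 genes have the lowest medians, 0.36 and 0.41, and the pan-macrophage list has 2.12 and 2.27.

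The pathways of single genes moved as follows. Both ligands of CSF1R rose. Csf1 averaged 69.8 ± 5.5 CPM in rHCI and 72.3 ± 5.52 in PBS against 31.5 ± 5.19 in Sham hearts, and Il34 averaged 4.55 ± 1.02 and 4.77 ± 0.403 against 2.74 ± 0.398. Csf2rb, the shared beta chain of the GM-CSF receptor, had log2 fold changes of 2.89 ± 0.15 in PBS and 2.91 ± 0.12 in rHCI. Csf2ra, the alpha chain, had 1.31 ± 0.09 and 1.09 ± 0.10, and Csf3r, the G-CSF receptor, had 2.68 ± 0.21 and 2.67 ± 0.16. All 5 genes tested in that list rose in both comparisons.

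Both sister receptors of Mertk rose too, with larger log2 fold changes. Tyro3 averaged 8.31 ± 1.74 CPM in rHCI and 10.4 ± 1.02 in PBS against 2.67 ± 0.469 in Sham hearts, a log2 fold change of 1.96 ± 0.12 in PBS and 1.65 ± 0.16 in rHCI. Axl averaged 202 ± 28.6 and 214 ± 12.3 against 98.8 ± 9.79 CPM, a log2 fold change of 1.11 ± 0.07 in PBS and 1.04 ± 0.10 in rHCI against Sham. Pros1, protein S, the other bridging ligand of these receptors, had 0.95 ± 0.07 and 0.89 ± 0.08. Of 18 genes tested for uptake of apoptotic cells, 15 rose and 1 fell in each comparison. Megf10, an engulfment receptor, had 1.96 ± 0.12 and 1.81 ± 0.27. Itgb3, an integrin chain, had 1.56 ± 0.13 and 1.52 ± 0.15, and Lrp1, a widely expressed endocytic receptor, had 1.24 ± 0.11 and 1.30 ± 0.17. Cd36, which also carries fatty acids into heart muscle, fell, with −0.74 ± 0.09 in PBS and −0.59 ± 0.10 in rHCI. Adam17, a protease that sheds MERTK from the cell surface, had 0.45 ± 0.05 and 0.36 ± 0.07.

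Cd163 feeds haemoglobin iron into the cell. Of 8 genes tested in the list of haem and iron handling, 4 rose and 1 fell in each comparison. Among all genes 36.5% rose and 34.9% fell in PBS, and 34.1% and 29.7% in rHCI, so so short a list shows no response as a whole. Hmox1, which opens the haem ring, averaged 24.8 ± 4.91 CPM in rHCI and 26.5 ± 3.97 in PBS against 5.76 ± 0.706 in Sham hearts. Slc11a1, a phagosome metal transporter, had log2 fold changes of 2.22 ± 0.12 in PBS and 2.01 ± 0.14 in rHCI. Ftl1 rose (1.31 ± 0.08 and 1.15 ± 0.09) and Fth1 fell (−0.45 ± 0.06 and −0.36 ± 0.08), both ferritin chains with many near-identical copies in the genome, so their counts are uncertain. Hp, the haptoglobin gene, sat in the monocyte list with 4.56 ± 0.54 and 4.68 ± 0.51.

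Relatives of the other receptors were counted in a further list. Of its 14 genes tested, 10 rose and 0 fell in each comparison. Cd5l, a scavenger-receptor protein secreted by macrophages and related to Cd163, had log2 fold changes of 6.62 ± 0.33 in PBS and 6.28 ± 0.47 in rHCI against Sham, where it averaged 0.0466 ± 0.0414 CPM. Havcr2, TIM-3, from the same family as Timd4, had 2.74 ± 0.22 and 2.46 ± 0.28, and Flt3, a receptor of dendritic cell precursors related to Csf1r, had 2.57 ± 0.19 and 2.27 ± 0.20. Mrc2, the mannose receptor relative that takes up collagen in fibroblasts, had 2.29 ± 0.09 and 2.14 ± 0.15. Cd44, the widely expressed hyaluronan receptor beside Lyve1, had 2.31 ± 0.12 and 2.36 ± 0.17. Folr1, folate receptor alpha, averaged 0.792 ± 0.238 CPM in rHCI and 0.800 ± 0.197 in PBS against 0.0479 ± 0.0245 in Sham hearts.

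Lyve1 and Mrc1 are also expressed by lymphatic endothelium. Of 5 lymphatic genes tested, 3 rose and 1 fell in PBS and 4 rose and 1 fell in rHCI against Sham, and the 6 listed genes summed to 168 to 208 CPM in rHCI, 162 to 186 in PBS and 169 to 188 in Sham hearts. Flt4, the lymphatic growth factor receptor, averaged 45.1 ± 3.97 CPM in rHCI and 45.7 ± 1.88 in PBS against 29.1 ± 1.98 in Sham hearts. Prox1, the lymphatic transcription factor that heart muscle also carries, fell to 80.2 ± 22.4 in rHCI and 66.2 ± 10.0 in PBS against 125 ± 7.05 CPM in Sham hearts. Prox1 was the largest part of the summed level in every group, so the sum does not show whether lymphatic RNA changed. Pdpn, podoplanin, which fibroblasts of the scar also carry, had log2 fold changes of 2.54 ± 0.11 in PBS and 2.43 ± 0.11 in rHCI, and Mmrn1 had 0.81 ± 0.10 and 0.85 ± 0.10. Ccl21a, a chemokine of lymphatic vessels, did not pass the filter on low counts. The part of lymphatic vessels in the levels of Lyve1 and Mrc1 was not tested. Of 7 genes of blood vessel endothelium, 4 rose in PBS and 2 in rHCI, where 36.5% and 34.1% of all genes did. All 7 neutrophil genes rose in both, with summed levels of 14 to 31.8 CPM in rHCI, 13.9 to 43.8 in PBS and 2.74 to 4.58 in Sham hearts.

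Within groups the 10 genes fell into different company. With each group's mean removed, Pearson's r of log2 CPM over the 15 libraries ranged from −0.60 to 0.86 over the 45 pairs, with a median of 0.22. These values are a description, and genes of 1 library share its RNA sample and its depth. Adgre1 and Csf1r went together (r = 0.86), and both went with Gas6 (0.67 each) and Mertk (0.60 and 0.54). Gas6 and Mertk had 0.355 with each other. Lyve1 went with Adgre1 (0.59), and Mrc1 with Csf1r (0.58), Folr2 (0.55) and Cbr2 (0.51). Folr2, Cbr2 and Timd4 went with each other (0.66 to 0.70), and Timd4 went against Gas6 (−0.60) and Mertk (−0.49). Cd163 had no partner above 0.34 and went against Gas6 (−0.52).

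**Figure D5:**
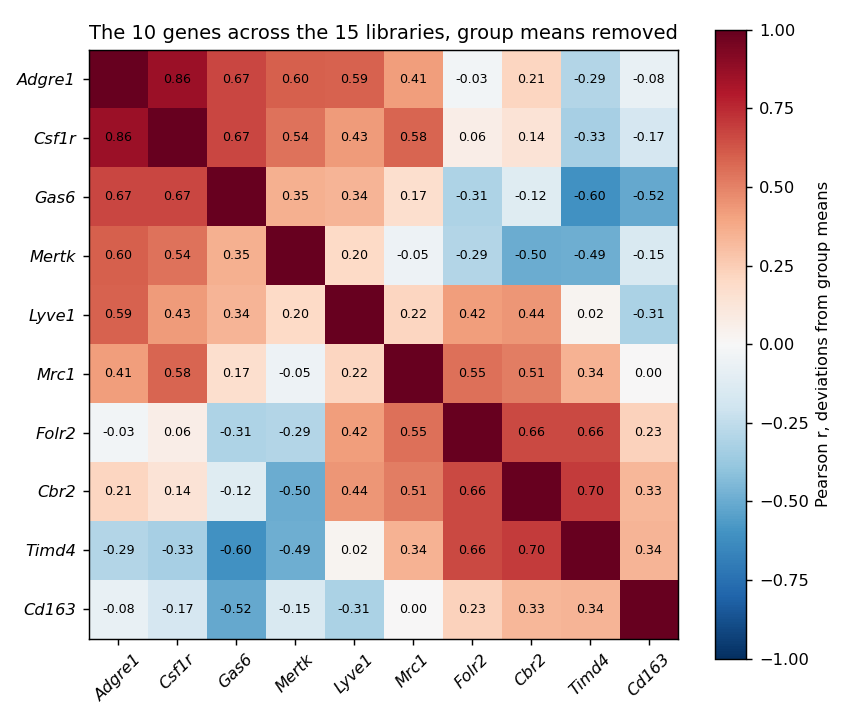
Pearson's r of log2 CPM between the 10 genes over 15 libraries after removing the mean of each group, from −1 (blue) to 1 (red). Adgre1, Csf1r, Gas6 and Mertk are positive among themselves, as are Folr2, Cbr2 and Timd4.

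The same deviations were set beside lists of other cells. Gas6 had r = 0.84 with the fibroblast list and −0.81 with the cardiomyocyte list, Csf1r 0.89 and −0.76, Adgre1 0.83 and −0.72, and Mertk 0.60 and −0.80. Timd4 had −0.56 with the fibroblast list and 0.60 with the cardiomyocyte list, and Cd163 had −0.42 and 0.45. Adgre1 and Csf1r had 0.92 each with the pan-macrophage list, Gas6 0.73, Lyve1 0.62, Mrc1 0.54, Mertk 0.49, Cbr2 0.26 and Folr2 0.06. Cd163 (−0.30) and Timd4 (−0.23) were the only 2 of the 10 genes below 0 there. With the recruited monocyte list, Mrc1 had 0.61, Cbr2 0.57, Timd4 0.55, Folr2 0.37, Lyve1 0.29, Csf1r 0.28, Adgre1 0.19 and Gas6 0.12. Mertk (−0.26) and Cd163 (−0.32) were below 0 with that list. The part of the fibroblast and cardiomyocyte levels in the correlations among the 10 genes was not tested.

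Among 14055 named genes tested, those whose deviations were most like Adgre1 were Fads2 (r = 0.96), Mpeg1 (0.95) and Tlr7 (0.95), and those most like Csf1r were Gsdmd (0.94), Unc93b1 (0.94) and Soat1 (0.93). Mertk was followed by Lig1 (0.95), Lrch2 (0.94) and Fem1b (0.94), and Gas6 by Dpp7 (0.95), Igfbp4 (0.95) and Npc2 (0.94). For Mrc1 they were Mir8091, Ms4a4c (0.90 each) and Zfp455 (0.90), for Timd4 Tet1, Pfn2 (0.92 each) and Lactb2 (0.90), and for Cd163 Kdm7a (0.87), Rph3al (0.85) and Lama5 (0.84). Lyve1 was followed by Duox1 (0.84), Casp4 (0.81) and Anpep (0.81), Folr2 by Tmtc2 (0.87), Erap1 (0.82) and Rwdd2b (0.82), and Cbr2 by Mamstr (0.89), Rcor2 (0.88) and Cxxc4 (0.87). The coefficient of variation of CPM within a group was 4.31% to 25.7% over the 10 genes in rHCI hearts, 5.74% to 12.7% in PBS hearts and 2.63% to 18.4% in Sham hearts, and Timd4 in rHCI hearts was the most variable.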

How the data were processed

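Stranded mRNA libraries of 15 left ventricles were analysed from raw read counts per gene that the authors deposited. Per the submitters' processing notes, Trimmomatic, STAR, Cufflinks and edgeR were used with GRCm38 and mm10; how reads were counted, and with which strand setting, is not given in the sources used here. Groups came from the sample titles. Whether libraries come from separate animals is not stated beyond the design text's biological replicates. No pair of libraries within a group was a repeat (lowest chi-square per gene 10.7 over 30 pairs). Each pair of groups was fitted alone with edgeR 4.0.16 in R 4.3.3 (filterByExpr, TMM, quasi-likelihood F test, two-sided, Benjamini-Hochberg over all genes tested, threshold 0.05). Standard errors and 95% intervals come from that fit. CPM uses TMM factors of all 15 libraries, and log2 CPM a prior count of 2. Relative levels used exact permutation tests, 24 in all, unadjusted. On simulated counts with 200 genes changed 2-fold, 85.5% were recovered for PBS against Sham (16207 genes), 87.5% for rHCI against Sham (16076) and 86.5% for rHCI against PBS (16383). Of the calls made, 5.52%, 6.42% and 4.95% were false, in the same order. Far more genes were called in the real comparisons with Sham, and most of the 10 genes changed less than 2-fold. The simulation therefore does not give the power for these genes. Gene positions and exon lengths are from GENCODE M21, promoter sequences from RefSeq, GRCm38.p6. The 10 genes and all lists were chosen with earlier results of these data known. Named genes of a list were up to 4 with the largest change in PBS against Sham, given here for the macrophage and lymphatic lists. Ccr2, Ccl24, Selenop, F13a1, Il34, Axl, Pros1, Cd36, Lpl, Adam17, Mrc2, Cd44, Sftpc and Napsa were added after their values were seen. Genes most alike were the 3 highest correlations per gene, leaving out predicted and clone names. Alternatives were RLE factors, library totals, DESeq2 1.42.0, limma-voom 3.58.1, other filters, all libraries in 1 fit, sequencing run, a minimum 1.2-fold change, other references for relative levels and each library left out. Leaving out each library for the list genes was added after their values were seen.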

Additional observations from a re-analysis of the deposited data

Results flagged for a closer look

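Of 54 groups of 5 libraries examined, 10 genes by CPM and 8 by relative level in each of 3 groups, 2 held a library far from the others by Dixon's test, where chance gives about 1 in 20. Folr2 in PBS 12 was at 10.8 CPM, and the other PBS libraries were at 9.21 to 9.60. Cd163 in Sham 18 was at 41.9 CPM, and the other Sham libraries were at 32.1 to 34.8. Without Sham 18 the log2 fold change of Cd163 was −0.59 in PBS and −0.44 in rHCI against Sham, and without PBS 12 that of Folr2 in PBS against Sham was 0.28, and these calls held.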

How the results depend on the processing

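Over all alternatives the counts of the 10 genes called stayed at 5 to 8 higher and 1 lower in PBS against Sham, at 5 to 8 higher and 1 lower in rHCI against Sham, and at 0 in rHCI against PBS. Scaling by library totals moved the median of all genes to 0.27 in PBS and 0.22 in rHCI against Sham, and the split of calls to 8938 higher and 2610 lower (5921 and 5653 with TMM) and to 8011 and 2128 (5487 and 4781). A minimum change of 1.2-fold left 6157 genes called in rHCI against Sham. In rHCI against PBS, DESeq2 called 6 genes and limma-voom 3, and leaving out 1 library gave 0 to 3. Timd4 changed sign in PBS against Sham with RLE factors (−0.00353), DESeq2 (−0.00377) and limma-voom (−0.11), in rHCI against Sham with library totals (0.17) and in rHCI against PBS with limma-voom (0.018). Gas6 relative to Csf1r alone was −0.046 in rHCI against PBS. With 1 library left out, Timd4 ranged from −0.070 to 0.089 in PBS against Sham, from −0.17 to 0.067 in rHCI against Sham and from −0.18 to 0.052 in rHCI against PBS, and Folr2 from −0.10 to 0.0091 in rHCI against PBS. Relative to Adgre1 and Csf1r, rHCI minus PBS then ranged from −0.018 to 0.031 for Gas6, −0.093 to 0.23 for Timd4, −0.0023 to 0.20 for Folr2 and −0.013 to 0.18 for Cbr2, and the count of genes higher from 0 to 1. The causes were not tested. All 8 genes stayed lower relative to Adgre1 and Csf1r in both comparisons with Sham under every reference, prior count and library left out. Adgre1 and Csf1r themselves rose in both comparisons. In the main setting 85.2% of all genes were also lower relative to them without overlap in PBS, and 84.9% in rHCI. The stability therefore does not set the 8 genes apart from most genes. In PBS against Sham, PBS 6 and Sham 19 are the only libraries of their runs, so the run as a covariate there amounts to leaving them out. The same holds for rHCI 1 and PBS 6 in rHCI against PBS. In rHCI against Sham, rHCI 1 and Sham 19 share a run, so it does not. No paired analysis was possible because the groups share no replicate numbers. At 74 to 193 counts per library, Timd4 is the gene that depth limits.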
